A study of Homo sapiens with 6 samples.

Results

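The D-type cyclins, their kinase partners CDK4 and CDK6, the retinoblastoma protein RB1 and the inhibitors that hold these kinases back were examined in Ewing sarcoma cells exposed to THZ1. The group was set by gene symbol and holds 10 of the 27420 genes in the deposited expression values: CCND1, CCND2, CCND3, CDK4, CDK6, RB1, CDKN1B, CDKN1C, CDKN2A and CDKN2C. RNA was sequenced from A673 and SKNMC, which are established Ewing sarcoma cell lines, each cultured in the same serum-containing medium. Each line was kept for 6 h with the vehicle DMSO or with THZ1, at 50 nM in one culture and at 200 nM in another, giving 6 libraries. The sample titles spell the second line SKMNC. THZ1 is a covalent inhibitor of CDK7, and the comparison asks which transcripts change with the compound. Whether these changes depend on CDK7 itself was not tested with these samples. In a separate experiment the study depleted CDK7 by shRNA and reported that the cells needed it for viability. No other agent, knockdown or transgene was applied to these samples, and each model is 1 cell line grown in culture.

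D-type cyclins bind CDK4 and CDK6 early in G1, and the assembled kinases phosphorylate RB1, which then releases E2F transcription factors that drive genes for DNA synthesis. INK4 proteins such as p16 and p18 occupy CDK4 and CDK6 directly, whereas Cip/Kip proteins such as p27 and p57 bind assembled cyclin and kinase complexes. CDK7 touches this axis in a pair of ways, because it serves the general transcription machinery of RNA polymerase II and also, with cyclin H and MAT1, activates other cyclin-dependent kinases. Cyclin D1 is a well known feature of Ewing sarcoma, in which the EWS-FLI1 fusion protein acts as the driving transcription factor.

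Each condition is 1 library, so a difference within a line has no replicate check and no p-value, and the order of neighbouring levels was not tested. The only tests are of changes shared by both lines, from a fit that takes the line as a block. Values are FPKM, fragment counts adjusted for the length of the transcript and for the size of the library. Being per length, they allow a rough comparison between genes. Other errors of the estimate that differ between genes were not assessed. A change is the log2 ratio of FPKM + 1 between a THZ1 library and its DMSO library, and the added 1 FPKM makes the change of weakly expressed genes look smaller than it was. A gene was active in a line when its DMSO library was above 1 FPKM, and it rose or fell when it changed at least 2-fold on this scale. FPKM is a share of a library, so the amount of RNA per cell is not measured. In such bulk samples fewer cells with a transcript and less transcript per cell cannot be told apart.

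Listed FPKM summed to between 97.8% and 100.5% of the DMSO library in the 4 THZ1 libraries, and the number of reads is unknown. All 7 Ewing sarcoma markers (NKX2-2, NR0B1, STEAP1, CD99, FLI1, PRKCB and BCL11B) were active in both lines, with summed levels of 841 FPKM in A673 and 704 FPKM in SKNMC with DMSO. Among the leukocyte markers, PTPRC was at 10.2 FPKM in SKNMC and 0.0201 FPKM in A673 with DMSO, CD3E was listed at 0 in every library, and CD14 was at most 0.187 FPKM anywhere. The epithelial markers EPCAM and CDH1 stayed below 1 FPKM and KRT8 lay between 11.0 and 14.2 FPKM, and the listed endothelial markers CDH5 and VWF were at most 0.127 FPKM. EEF1A1 was listed at 0 in both SKNMC THZ1 libraries, so a 0 in these values can be a failed estimate; none of the 10 genes was listed at 0 in any library.

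Promoter sequences show the start regions of the more abundant kinase and of the inhibitor with the largest decrease. RefSeq promoter entries on GRCh38.p14 matched 7 of the 10 genes, with 13 entries. CCND1, CCND2 and CDKN1C had no entry, so no motif was searched for at their starts. In the 250 bases upstream of each start, both strands were searched for the E-box CACGTG (bound by MYC and related factors), for the E2F motif TTTGGCGC or TTTCGCGC, for the CCAAT box and for the GGAA repeat GGAAGGAA that EWS-FLI1 is known to bind. The CDK4 window, chr12:57752311-57752560 on the minus strand, holds 3 E-boxes, and the CDKN1B window, chr12:12717118-12717367 on the plus strand, holds 2 CCAAT boxes. Both are printed from 5′ to 3′ on the strand of the gene with those motifs in capitals.
CDK4: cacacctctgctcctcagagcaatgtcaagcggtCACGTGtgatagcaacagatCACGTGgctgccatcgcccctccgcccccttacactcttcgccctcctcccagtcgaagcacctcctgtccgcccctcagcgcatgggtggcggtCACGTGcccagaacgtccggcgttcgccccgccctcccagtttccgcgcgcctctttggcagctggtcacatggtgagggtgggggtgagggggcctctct
CDKN1B: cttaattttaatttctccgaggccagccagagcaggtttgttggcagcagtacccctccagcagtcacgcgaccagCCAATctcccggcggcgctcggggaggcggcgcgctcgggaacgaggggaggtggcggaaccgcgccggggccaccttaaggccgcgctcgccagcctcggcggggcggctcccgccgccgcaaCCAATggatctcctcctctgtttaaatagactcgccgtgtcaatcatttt
At least 1 E-box occurs in 6.34% of the 35116 promoter windows of this length, and 3 or more occur in 28 of them (0.0797%). The cut of 3 is the count found in the CDK4 window, which is 1 of 13 entries searched for several motifs. Its rarity was therefore not tested. A CCAAT box on either strand occurs in 32.0% of windows, and the share with 2 or more was not computed. Entries of CCND3 and CDKN2C also hold a CCAAT box. The E2F motif (0.968% of all windows) and the GGAA repeat (3.06%) were not found in any of the 13 entries. The single RB1 entry lies inside the gene, so the main start of RB1 was not searched. CDKN2C holds 1 E-box in 2 of its 3 entries. A match describes letters in a window and not a bound site.

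In unperturbed cells the axis was dominated by cyclin D1 and CDK4. CCND1 (ENSG00000110092, hg19 chr11:69455855-69469242, plus strand), which encodes cyclin D1, stood at 710.6 FPKM in A673 and 370.2 FPKM in SKNMC with DMSO, above 99.2% and 98.7% of the active genes. It was the most abundant of the 10 transcripts in all 6 libraries. CDK4 (ENSG00000135446, chr12:58141510-58149796, minus strand), its main kinase partner, was at 163 FPKM in A673 and 178 FPKM in SKNMC. CDK6 (ENSG00000105810, chr7:92234235-92465908, minus strand), the alternative kinase, was at 6.13 and 2.91 FPKM, so CDK4 exceeded it 26.5-fold in A673 and 61.2-fold in SKNMC.

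By ratio the lines differed most in CCND2 and in the inhibitors CDKN2A, CDKN1C and CDKN2C. On the log2(FPKM + 1) scale 4 of the 10 genes were at least 2-fold higher in SKNMC than in A673 with DMSO, where 15% of the 12399 genes active in either line were, and 0 were at least 2-fold higher in A673 (8.42% of all). Together 23.5% of those genes lay at least 2-fold apart in one direction or the other. CDKN2A, CCND2 and CDKN1C entered the count only through SKNMC, the line in which they are high. The genes behind the shares entered by the same rule. With so few genes the count does not set the axis apart from the background. CDK6 was 2.11-fold higher in A673 in FPKM and stayed inside the limit with 1 FPKM added. CCND1 was 1.92-fold higher in A673, inside the limit, and had the largest gap in FPKM among the 10 genes. CDKN2A (ENSG00000147889, chr9:21967751-21995300, minus strand) encodes p16INK4a and, from an alternative first exon, p14ARF, which the gene-level values cannot separate. It was at 0.459 FPKM in A673 and 127 FPKM in SKNMC, a ratio of 276. A673 is known as a line with deletion of this locus, and copy number was not measured here. CCND2 (ENSG00000118971, chr12:4382938-4414516, plus strand), encoding cyclin D2, was at 0.125 and 21.6 FPKM, a 172-fold ratio. CDKN1C (ENSG00000129757, chr11:2904443-2907111, minus strand), which encodes the imprinted inhibitor p57, was at 0.355 and 7.61 FPKM. CDKN2C (ENSG00000123080, chr1:51426417-51440305, plus strand), encoding p18INK4c, was active in both lines and at 20.5 and 61.3 FPKM, a 2.98-fold ratio. The leukocyte marker PTPRC differed between the lines in the same direction, at 0.0201 FPKM in A673 and 10.2 FPKM in SKNMC, while CD3E was listed at 0 and CD14 was near 0 in both, and the part of PTPRC-expressing cells in these differences was not tested.

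The remaining genes had similar levels in the 2 lines. RB1 (ENSG00000139687, chr13:48877887-49056122, plus strand) was at 29.6 FPKM in A673 and 31.6 FPKM in SKNMC. CDKN1B (ENSG00000111276, chr12:12867992-12875305, plus strand), which encodes p27, was at 17.6 and 18.0 FPKM, and CCND3 (ENSG00000112576, chr6:41902671-42018095, minus strand), encoding cyclin D3, at 24.8 and 33.4 FPKM. All 10 genes were above 1 FPKM in SKNMC with DMSO, whereas CCND2, CDKN1C and CDKN2A were below it in all 3 A673 libraries. Changes in A673 are therefore given over 7 genes.

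**Figure D1:**
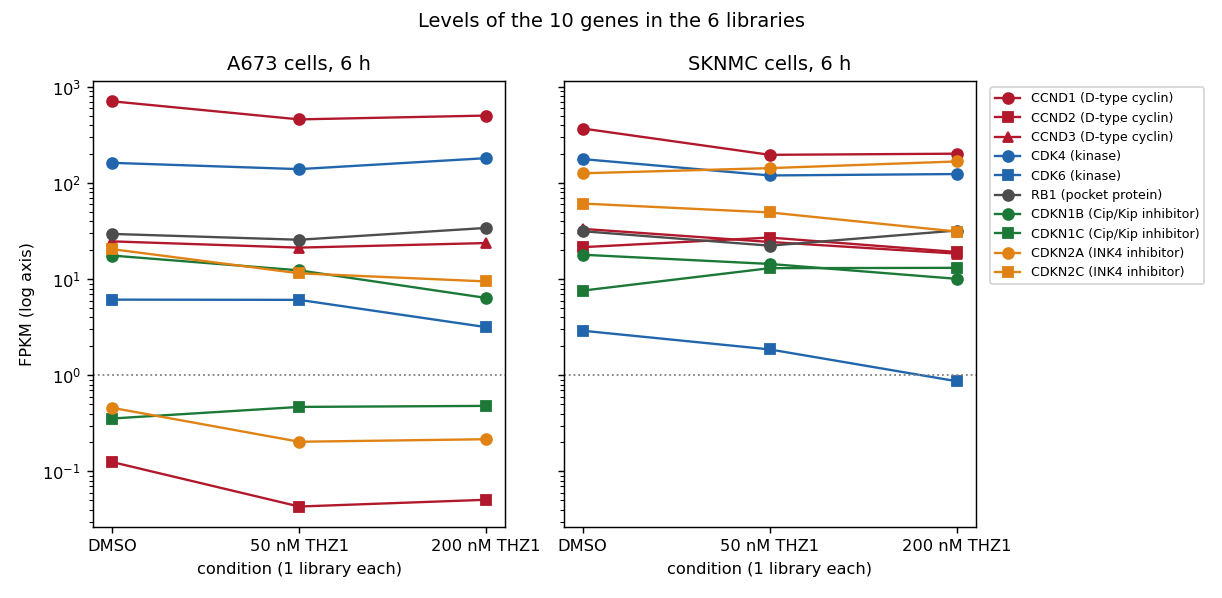
FPKM (log axis) of the 10 genes in the 6 libraries, with A673 on the left and SKNMC on the right; each point is 1 library, lines join the conditions of a gene, and the dotted line is at 1 FPKM. CCND1 is the highest gene in every library, and CCND2, CDKN1C and CDKN2A lie below 1 FPKM in all 3 A673 libraries.

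Under THZ1 few genes of the axis passed the 2-fold limit, and none rose. At 50 nM in A673, 0 of the 7 active genes fell, against 15.9% of all active genes. At 200 nM in A673, CDKN1B and CDKN2C fell, 2 of 7, against 25.3%. At 50 nM in SKNMC, 0 of the 10 fell, against 15.8%. At 200 nM in SKNMC, CDK6 alone fell, 1 of 10, against 27.3%. The share of active genes that rose at least 2-fold was 0.343% and 0.126% in A673 and 0.471% and 0.462% in SKNMC at 50 and 200 nM. With so few genes these counts do not set the axis apart from the background.

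The median change of the active members was close to that of all active genes. A673 had -0.22 for the lower dose and -0.49 for the higher, where all 11077 active genes had medians of -0.27 and -0.40. SKNMC had -0.37 and -0.64, where all 11896 active genes had -0.32 and -0.55. The comparisons of both doses share the DMSO library of the line, so they are not independent. Another scaling between libraries moves every value. Setting the 75th percentile of active genes equal raised the all-gene median by 0.22 and 0.32 in A673 and by 0.25 and 0.48 in SKNMC. Setting the median of active ribosomal protein genes equal moved it by -0.19 and -0.30 in A673 and by -0.31 and -0.45 in SKNMC. Of 84 listed ribosomal protein genes, those above 1 FPKM with DMSO in the line were used. The sign of the change was the same as deposited under the deposited, summed, 75th percentile and ribosomal protein scalings for 3 of 7 genes at 50 nM and 4 of 7 at 200 nM in A673, and for 8 and 6 of 10 in SKNMC.

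A fit across both lines, added after the data were seen, asked which changes were shared. Log2(FPKM + 1) of the 6 libraries was fitted with limma, with the cell line as a block and dose as a term, over the 10574 genes active in both lines, and it leaves 2 residual degrees of freedom. To these limma adds 9.48 prior degrees of freedom (from 6.51 to 27.1 under the other scalings). Most of the error estimate of a gene is therefore borrowed from other genes. The error in this fit is the disagreement between 2 cell lines and not the spread of repeated cultures. At 50 nM 2 of the 7 genes were lower at an adjusted p under 0.05, CCND1 and CDKN2C, against 38.5% of all genes. At 200 nM these and also CDKN1B and CDK6 were lower, 4 of 7, against 52.7%. The shared log2 change of CCND1 was -0.77 (SE 0.110, limma adjusted p = 0.00021) and -0.68 (SE 0.110, adjusted p = 0.000244). That of CDKN2C was -0.54 (SE 0.163, limma adjusted p = 0.0186) and -0.99 (SE 0.163, adjusted p = 0.000274). CDKN1B was at -1.06 (SE 0.181, limma adjusted p = 0.000379) and CDK6 at -0.92 (SE 0.183, adjusted p = 0.00109) at 200 nM. In FPKM as deposited CCND1, CCND3, CDK6, CDKN1B and CDKN2C were lower than DMSO in 4 of 4 THZ1 libraries. Of all active genes, 70.1% and 70.4% in A673 and 73.0% and 80.8% in SKNMC were lower at 50 and 200 nM. CCND3, CDK4 and RB1 did not pass at either dose, with adjusted p between 0.0502 and 0.533. Under 75th percentile scaling CCND1 remained past the threshold at 50 nM but not at 200 nM (limma adjusted p = 0.0866). CDKN2C did not pass at 50 nM (limma adjusted p = 0.161). RB1 passed as higher at 200 nM, at 0.57 (limma adjusted p = 0.00464), as did 2611 of the 10574 genes. With this scaling 1 and 3 of the 7 genes passed as lower at 50 and 200 nM, against 25.1% and 31.9% of all genes. Under ribosomal protein scaling all 7 genes passed as lower at 50 nM and 6, without RB1, at 200 nM, against 57.6% and 77.4% of all genes.

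**Figure D2:**
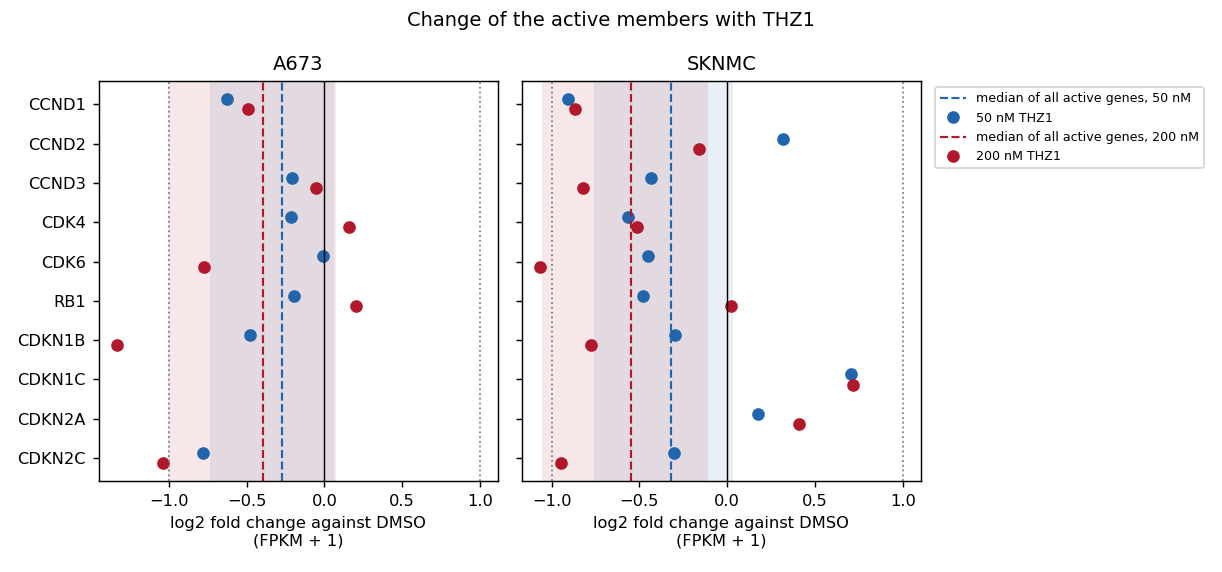
Log2 fold change of FPKM + 1 against DMSO for each active gene at 50 nM (blue) and 200 nM (red) THZ1; dashed lines are medians and shaded bands the interquartile ranges of all active genes, and dotted lines mark 2-fold. Points beyond the lower limit are CDKN1B and CDKN2C in A673 and CDK6 in SKNMC, all at 200 nM; CDKN2C in A673 and CDK6 in SKNMC lie inside the limit under 75th percentile scaling.

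Cyclin D1 was lower with THZ1 in both lines but did not reach the 2-fold limit. In the order DMSO, 50 nM and 200 nM, used for all values that follow, CCND1 measured 711, 461 and 505 FPKM in A673. In SKNMC it measured 370.2, 197 and 202 FPKM. Both THZ1 libraries of each line lay below the DMSO library, and the higher dose brought no lower level than the lower dose. The log2 changes were -0.62 and -0.49 in A673 and -0.91 and -0.87 in SKNMC, and all 4 remained negative under every scaling, between -1.43 and -0.12. Both SKNMC values passed 2-fold under ribosomal protein scaling, at -1.27 and -1.43. In absolute terms this was the largest loss among the 10 genes, -250.02 FPKM in A673 and -173 FPKM in SKNMC at the lower dose. Its change nevertheless lay within the distribution of all genes, with 29.8% and 45.3% of active A673 genes and 19.0% and 33.1% of active SKNMC genes below it. LTO1, a neighbour on the opposite strand, overlaps CCND1 by 1399 bp and was at 17.8, 7.96 and 9.93 FPKM in A673 and at 22.2, 10.4 and 12.2 FPKM in SKNMC; whether strand was used in counting is not given in the sources used here.

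Cyclin D2 and cyclin D3 did not share one course. CCND2 was at 21.6, 27.1 and 19.2 FPKM in SKNMC, and the 3 A673 libraries held 0.125, 0.0430 and 0.0506 FPKM. In SKNMC the intermediate dose was thus the highest and the high dose the lowest, with log2 changes of 0.32 and -0.16 that changed sign to -0.035 under ribosomal protein scaling and to 0.39 under 75th percentile scaling. CCND3 was at 24.8, 21.3 and 23.8 FPKM in A673 and at 33.4, 24.4 and 18.5 FPKM in SKNMC. Its levels were alike across the A673 libraries and stepped down with dose in SKNMC, where the log2 changes were -0.44 and -0.82, negative under every scaling. In A673 they were -0.21 and -0.056, which turned to 0.037 and 0.31 under 75th percentile scaling.

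Summed over the 3 D-type cyclins, the transcripts in FPKM as deposited fell short of the DMSO level by a similar share at both doses. The sum was 735, 482 and 529 FPKM in A673, and 425, 248.5 and 240.1 FPKM in SKNMC. These are 65.5% and 71.9% of DMSO in A673 and 58.5% and 56.5% in SKNMC. The likeness of the doses depends on the scaling. Under 75th percentile scaling CCND1, most of the sum, had log2 changes of -0.37 and -0.12 in A673 and -0.62 and -0.30 in SKNMC. CCND1 supplied 96.6%, 95.6% and 95.5% of this sum in A673. In SKNMC its share was 87.1%, 79.3% and 84.3%, and the CCND2 share was 5.07%, 10.9% and 7.997%. A share within a library does not depend on the scaling between libraries.

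CDK4 and CDK6, which carry the same function in the axis, had different values. CDK4 was at 163, 139.8 and 182 FPKM in A673 and at 178, 120.2 and 124 FPKM in SKNMC. In A673 the 200 nM library was the highest of the 3, and in SKNMC both THZ1 libraries were below DMSO. The log2 changes were -0.22 and 0.16 in A673, which became 0.037 under 75th percentile scaling and -0.21 under ribosomal protein scaling, and -0.56 and -0.51 in SKNMC, of which the value at 200 nM became 0.051 under 75th percentile scaling. TSPAN31, which overlaps CDK4 by 2493 bp on the opposite strand, was at 8.56, 12.2 and 11.9 FPKM in A673 and at 18.0, 18.1 and 22.0 FPKM in SKNMC.

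CDK6 was at 6.13, 6.09 and 3.17 FPKM in A673. In SKNMC it was at 2.91, 1.86 and 0.867 FPKM. The 50 nM library of A673 stood at 99.5% of its DMSO level, a log2 value of -0.0068 that turned positive under summed and 75th percentile scaling, and the 200 nM library was the lowest in both lines. CDK6 fell in SKNMC at 200 nM, by 1.07 on the log2 scale with 1 FPKM added, to 29.8% of the DMSO level in FPKM. The log2 value in A673 at 200 nM was -0.77, or 51.7% of DMSO. Both 200 nM values stayed negative under every scaling. The SKNMC value was -0.77 and inside the 2-fold limit under 75th percentile scaling, and the A673 value was -1.05 and past it under ribosomal protein scaling. CDK6 ended below 1 FPKM in SKNMC, where the added 1 FPKM weighs most, and with 0.1 FPKM added the change was -1.64. The ratio of CDK4 to CDK6 transcripts went from 26.5 with DMSO to 22.9 and 57.4 in A673 and from 61.2 to 64.7 and 143 in SKNMC, so in both lines the 200 nM library had the highest ratio.

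RB1, the substrate of these kinases and the pocket protein that holds E2F factors, was at 29.6, 25.7 and 34.2 FPKM in A673 and at 31.6, 22.3 and 32.1 FPKM in SKNMC. In each line the 50 nM library was the lowest and the 200 nM library the highest. The log2 changes were -0.19 and 0.20 in A673 and -0.48 and 0.024 in SKNMC, and of these only the SKNMC value at 50 nM kept its sign under every scaling. At 200 nM, 82.5% of active A673 genes and 81.9% of active SKNMC genes had a lower change than RB1. LPAR6 lies within RB1 on the opposite strand and was at 4.26 FPKM or less in every library.

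The Cip/Kip inhibitors moved apart in SKNMC. CDKN1B was at 17.6, 12.4 and 6.38 FPKM in A673 and at 18.0, 14.4 and 10.1 FPKM in SKNMC. Levels stepped down with dose in both lines. CDKN1B fell at 200 nM in A673 by 1.34 on the log2 scale, to 36.2% of DMSO in FPKM, and remained at or beyond 2-fold under every scaling, from -1.65 to -1.01. Its other log2 values were -0.48 in A673 at 50 nM, with -0.30 and -0.78 in SKNMC, negative under every scaling. At 200 nM in A673, 15.6% of active genes had a lower change than CDKN1B. CDKN1C was at 7.61, 13.02 and 13.1 FPKM in SKNMC and at 0.355, 0.468 and 0.480 FPKM in A673. Both SKNMC THZ1 libraries held about the same level, above DMSO, with log2 changes of 0.70 and 0.72 that were positive under every scaling and reached 1.25 at 200 nM under 75th percentile scaling. These lay above the changes of 98.6% and 98.4% of active SKNMC genes.

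The INK4 inhibitors also took separate courses. CDKN2C was at 20.5, 11.5 and 9.48 FPKM in A673 and at 61.3, 49.5 and 31.3 FPKM in SKNMC. Each line stepped down with dose. CDKN2C fell at 200 nM in A673 by 1.04 on the log2 scale, to 46.1% of DMSO, although 75th percentile scaling put this value at -0.70, inside the limit. The other log2 values were -0.78 in A673 at 50 nM, with -0.30 and -0.95 in SKNMC, and all 4 were negative under every scaling. CDKN2A was at 127, 143 and 168 FPKM in SKNMC, where each dose was above the one before, and at 0.459, 0.203 and 0.216 FPKM in A673. The SKNMC log2 changes of 0.18 and 0.41 turned to -0.19 and -0.16 under ribosomal protein scaling. By level CDKN2A was the third most abundant of the 10 transcripts in SKNMC with DMSO and the second in both THZ1 libraries.

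Ratios of summed transcripts within a library do not depend on the scaling between libraries. They do not measure the balance of the proteins. Summed D-type cyclin FPKM over summed CDK4 and CDK6 FPKM was 4.36, 3.30 and 2.86 in A673, and 2.35, 2.04 and 1.92 in SKNMC. This ratio was lower at each higher dose in both lines. The 4 inhibitor transcripts summed over CDK4 and CDK6 gave 0.231, 0.168 and 0.0894 in A673 but 1.18, 1.80 and 1.78 in SKNMC. Relative to the kinases the inhibitor transcripts were thus 38.7% of the DMSO ratio at 200 nM in A673 and 151% in SKNMC, opposite directions from 1 library each; the difference was not tested. In SKNMC the sum is mostly CDKN2A, whose p16 and p14ARF transcripts are not separated. INK4 transcripts there were at 188, 193 and 199 FPKM and Cip/Kip transcripts at 25.6, 27.4 and 23.2 FPKM. Summed CDK4 and CDK6 were at 181, 122 and 125 FPKM in SKNMC and at 169, 146 and 185 FPKM in A673. The higher inhibitor ratio in SKNMC thus went mostly with a lower kinase sum, in FPKM as deposited. CCND1 to CDKN1B, an activator to inhibitor pair, was 40.3, 37.3 and 79.1 in A673 and 20.6, 13.7 and 20.1 in SKNMC.

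**Figure D3:**
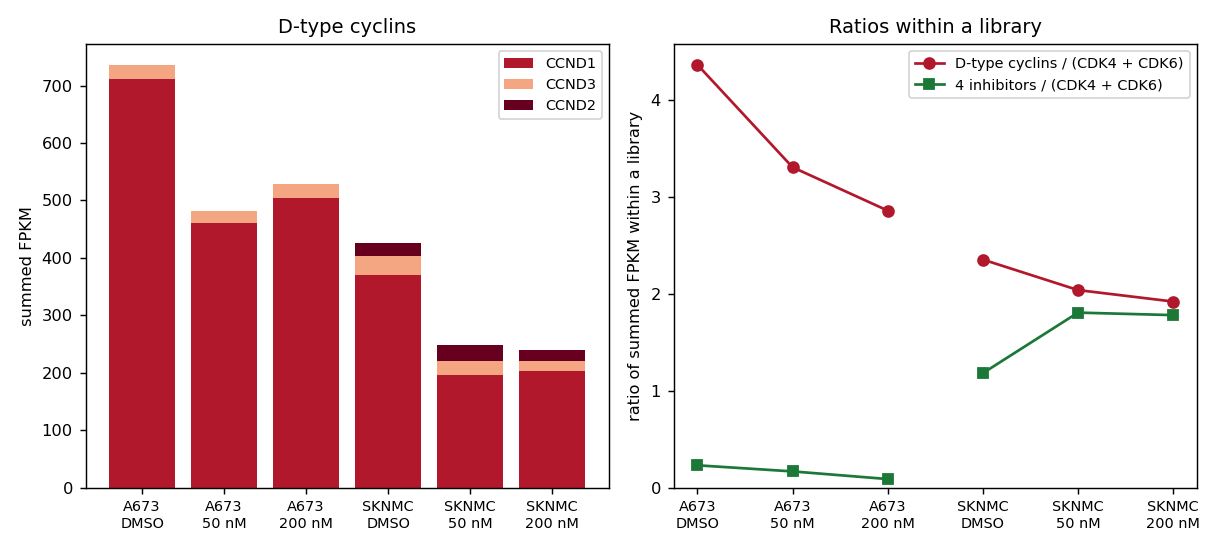
Left, FPKM of the 3 D-type cyclins stacked by gene in each library, from 735 FPKM in A673 with DMSO to 240.1 FPKM in SKNMC at 200 nM. Right, D-type cyclins (circles) and the 4 inhibitors (squares) over summed CDK4 and CDK6 FPKM in each library; the inhibitor ratio ends at 0.0894 in A673 and 1.78 in SKNMC.

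Between the doses, compared without the DMSO libraries, 0 of 7 genes in A673 and 0 of 10 in SKNMC changed at least 2-fold in either direction, where 7.44% and 8.39% of all active genes were at least 2-fold lower and 0.117% and 0.37% higher at 200 nM than at 50 nM. The lowest values were CDKN1B at -0.86 and CDK6 at -0.77 in A673, and CDKN2C at -0.64 and CDK6 at -0.61 in SKNMC, each negative under every scaling. CDK6 in SKNMC depended on the added 1 FPKM: with 0.1 FPKM added its value was -1.02, past the limit, which makes the count 1 of 10. The highest was RB1 in both lines, at 0.40 and 0.51, positive under every scaling. CCND1 differed by 0.13 and 0.039, values that became -0.011 and -0.16 under ribosomal protein scaling. The median over the members was 0.13 in A673 and -0.19 in SKNMC, beside -0.019 and -0.14 over all active genes.

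**Figure D4:**
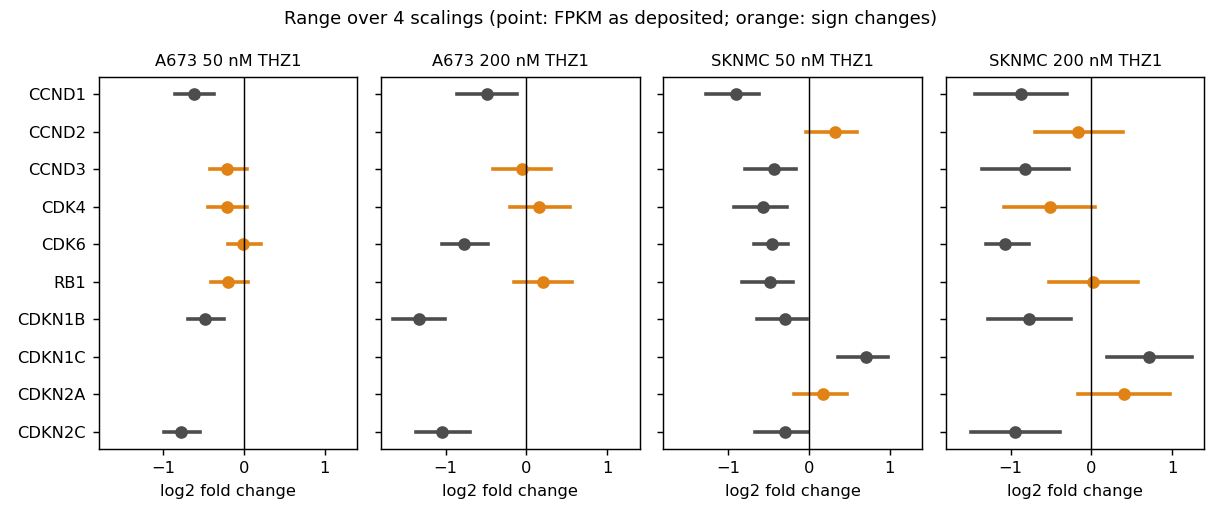
Range of each log2 fold change against DMSO over 4 scalings between libraries (bar) with the value from FPKM as deposited (point), for active genes; orange marks genes whose sign changes. CCND1, CDKN1B and CDKN2C are negative over the whole range in all 4 comparisons, and CDKN1C is positive in both SKNMC comparisons.

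Genes with the most similar set of 4 log2 changes, by Euclidean distance among 10573 other genes active in both lines, were listed for 4 members. The genes close to CCND1 included TRIP6 (distance 0.0717) and TUBB6 (0.0932), and 38 genes lay within 0.2 of it. RB1 lay nearest FAM69B (0.0655), RNASEH2A (0.0775) and CHURC1 (0.0828), with 52 genes within 0.2. CDKN1B lay nearest SNHG15 (0.136), SOS1 (0.165) and BEND7 (0.166), with 9 genes within 0.2, and CDK6 nearest BTRC (0.148), POLDIP3 (0.173) and RBMS1 (0.210), with 2.

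Genes around the axis ranged from large decreases in the E2F and MuvB groups to values nearer 0 in S-phase genes. The counts below stand beside the shares of all active genes that fell, 15.9% and 25.3% in A673 and 15.8% and 27.3% in SKNMC at 50 and 200 nM. Those shares were 11.0%, 17.3%, 10.3% and 13.4% under 75th percentile scaling and 21.3%, 35.2%, 26.5% and 49.7% under ribosomal protein scaling, in the same order. Among the 12 pocket proteins, E2F factors and DP partners other than RB1, 4 in A673 and 3 in SKNMC fell at the lower dose and 7 in either line at the higher dose, and none rose. Their median changes were -0.77 and -1.57 in A673 and -0.78 and -1.16 in SKNMC, below the medians of all active genes, and negative under every scaling. Over the scalings the counts ran from 3 to 6 and from 7 to 8 in A673 and from 2 to 8 and from 5 to 10 in SKNMC. E2F5, a repressor E2F that works with the pocket proteins p107 and p130, was at 25.3, 4.61 and 3.11 FPKM in A673 and at 26.1, 4.88 and 3.65 FPKM in SKNMC. It fell in all 4 comparisons, with log2 changes from -2.68 to -2.20. TFDP1, the DP1 partner of E2F factors, was at 63.7, 63.0 and 70.5 FPKM in A673 and at 150.8, 160 and 176 FPKM in SKNMC, with log2 values from -0.015 to 0.22 whose signs depended on the scaling.

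The MuvB core, which joins pocket proteins and E2F factors in the DREAM complex, had 5 active genes in each line. Of these, 2 fell at 50 nM and 4 at 200 nM in either line, with medians of -0.93 and -1.55 in A673 and -0.65 and -1.26 in SKNMC. Over the scalings the counts ran from 1 to 3 and stayed at 4 in A673, and ran from 1 to 2 and from 2 to 4 in SKNMC. LIN9, its scaffold subunit, was at 13.8, 6.14 and 2.30 FPKM in A673 and at 14.02, 5.52 and 3.18 FPKM in SKNMC, and fell in all 4 comparisons, with log2 changes from -2.16 to -1.05, although its 50 nM values of -0.83 in A673 and -0.95 in SKNMC under 75th percentile scaling lie inside the limit. RBBP4, a histone-binding subunit shared with other complexes, had the smallest changes, from -0.29 to -0.17, positive under 75th percentile scaling except at 50 nM in A673.

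The kinase step that follows cyclin D was represented by CCNE1, CCNE2, CCNA2, CDK2 and its activating phosphatase CDC25A. At 50 nM 2 of the 5 genes fell in A673 and 1 in SKNMC, and at 200 nM 4 fell in each line, with medians of -0.78, -1.62, -0.57 and -1.79 in the order of A673 and then SKNMC, each with the lower dose first. Over the scalings the counts at 50 nM ran from 1 to 2 in A673 and from 0 to 1 in SKNMC, and those at 200 nM stayed at 4 in A673 and ran from 3 to 4 in SKNMC. CCNE2, cyclin E2, was at 8.09, 3.04 and 1.95 FPKM in A673 and at 21.3, 8.31 and 5.42 FPKM in SKNMC, and fell in all 4 comparisons, although its 50 nM values were -0.97 and -0.99 under 75th percentile scaling. CDK2 was at 51.0, 37.8 and 45.2 FPKM in A673 and at 41.5, 36.9 and 33.7 FPKM in SKNMC, with log2 values from -0.42 to -0.17, of which the value at 50 nM in A673 was negative under every scaling.

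The CDK-activating kinase itself is CDK7 with CCNH and MNAT1. CDK7, the target of THZ1, was at 41.1, 26.4 and 9.57 FPKM in A673 and at 30.4, 22.0 and 6.33 FPKM in SKNMC, and fell at 200 nM in both lines, with log2 changes of -1.99 and -2.10. CCNH, cyclin H, was at 37.5, 38.9 and 30.9 FPKM in A673 and at 25.1, 30.2 and 15.7 FPKM in SKNMC, within the 2-fold limit except at 200 nM in SKNMC under ribosomal protein scaling (-1.17). At 200 nM, 1 of the 3 genes fell in each line and at 50 nM 0 did, and under ribosomal protein scaling all 3 fell at 200 nM in SKNMC.

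Genes that turn over cyclin D and p27 or fold CDK4 included 9 active genes, of which 0 fell at 50 nM in either line and 2 in A673 and 3 in SKNMC fell at 200 nM, with none that rose. Over the scalings the 200 nM counts ran from 0 to 3 in A673 and from 0 to 5 in SKNMC. FBXO31, a ubiquitin ligase subunit that recognises cyclin D1, was at 12.0, 9.17 and 4.55 FPKM in A673 and at 9.72, 9.46 and 3.71 FPKM in SKNMC and fell at 200 nM in both lines, with log2 changes of -1.23 and -1.19, which were -0.92 and -0.72, inside the limit, under 75th percentile scaling. CDC37, the chaperone partner that delivers kinases such as CDK4 to HSP90, was at 139.8, 169 and 193 FPKM in A673 and at 76.5, 89.2 and 107 FPKM in SKNMC, with log2 values from 0.22 to 0.47, which became negative in SKNMC under ribosomal protein scaling. The list medians were 0.041 and -0.22 in A673 and -0.0077 and -0.49 in SKNMC, and each changed sign with the scaling.

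The further inhibitors had little in common. CDKN1A, encoding p21, was at 11.5, 10.8 and 7.18 FPKM in A673 and at 5.16, 2.89 and 0.889 FPKM in SKNMC, and fell by 1.71 on the log2 scale in SKNMC at 200 nM. CDKN2D, encoding p19INK4d, was at 5.03, 7.06 and 5.61 FPKM in A673 and at 10.2, 18.6 and 11.6 FPKM in SKNMC, with its highest level at 50 nM in each line. CDKN2B, the INK4 gene beside CDKN2A, was below 1 FPKM in every library. Of the 2 active genes, 0 passed the limit at 50 nM in either line or at 200 nM in A673, and 1 fell at 200 nM in SKNMC.

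Most S-phase genes that E2F factors are known to drive stayed inside the 2-fold limit. Of 14 active genes, 1 fell at each dose in A673, and 0 at 50 nM and 2 at 200 nM in SKNMC (CDC6 and MCM3, the latter at -1.11), with none that rose. At 200 nM in SKNMC the count ran from 1 to 6 over the scalings, and the summed level of the list was 989 FPKM against 1298 FPKM with DMSO. The medians were -0.0085 and 0.028 in A673 and -0.080 and -0.23 in SKNMC, above those of all active genes in all 4 comparisons, and each changed sign with the scaling. CDC6, a licensing factor of replication origins, was at 36.1, 12.6 and 12.6 FPKM in A673 and at 32.6, 16.1 and 10.4 FPKM in SKNMC, with log2 changes of -1.45, -1.45, -0.97 and -1.55. TK1, thymidine kinase, was at 124, 129.8 and 165 FPKM in A673 and at 67.3, 74.9 and 80.3 FPKM in SKNMC, with log2 values from 0.061 to 0.40, of which the value at 200 nM in A673 was positive under every scaling.

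**Figure D5:**
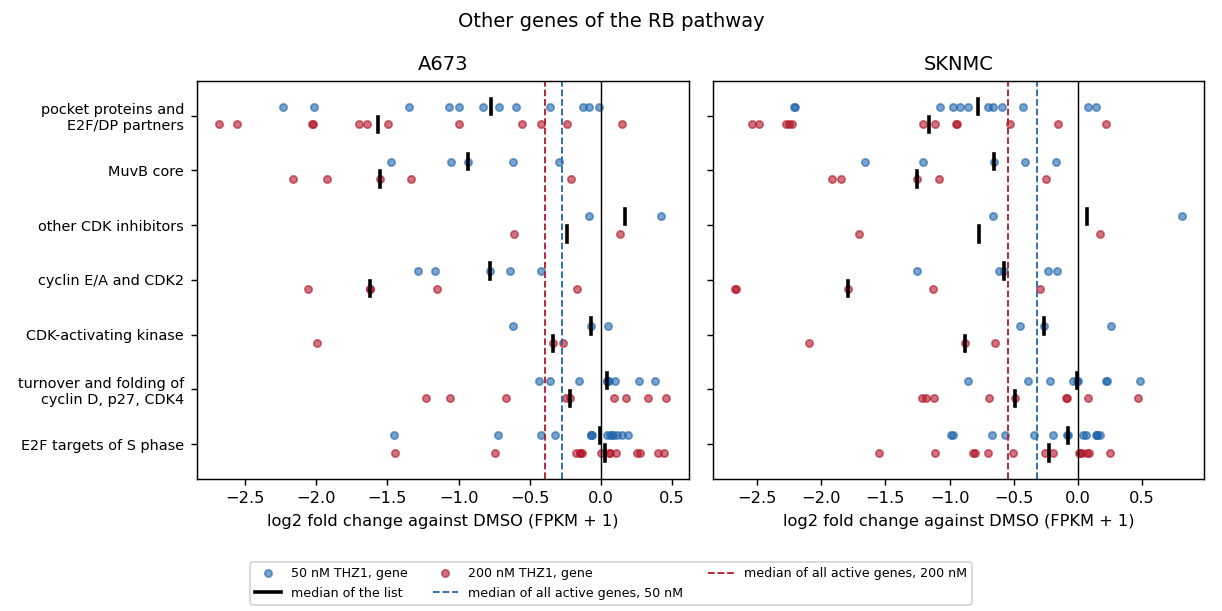
Log2 fold change of FPKM + 1 against DMSO of each active gene in 7 lists around the axis, at 50 nM (blue) and 200 nM (red); black bars are list medians and dashed lines the medians of all active genes. The E2F and DP, MuvB and cyclin E/A lists have medians left of the dashed lines at both doses, and the S-phase list has medians right of them; the medians of the S-phase list and of the turnover and folding list change sign with the scaling, in all 4 comparisons.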

How the data were processed

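Per the study's methods, TruSeq libraries were read as 100-bp pairs on a HiSeq2000 instrument, and STAR placed the reads on hg19 (GRCh37) with Ensembl 75 gene models. The authors deposited FPKM values per gene, estimated with StringTie according to the study's methods, while Cufflinks is named in the submitters' processing notes. Tool versions and strandedness are not given in the sources used here. The title of the deposited values speaks of an average, whereas the labels give 1 library per condition. Columns were treated as single libraries. The 4 deposited columns with log2 fold changes of the authors' own comparisons were not used.

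Genes were taken by symbol. Log2 fold changes used a pseudocount of 1, an active level above 1 FPKM with DMSO, and the limit was 2-fold. With 1 library per condition no test within a line was made. Changes shared by both lines were tested with limma 3.58.1 (trend, Benjamini-Hochberg adjustment), the line as a block, added after seeing the data. FPKM carries no read counts, so depth is unknown and no counting error could be given. Coordinates are those of the deposited values in hg19, with 1 added to the starts: 14261 of the 26109 starts matched to GENCODE 44 on GRCh37 were equal after adding 1 and 416 were equal without. Overlaps with other genes are from that annotation, and promoters from RefSeq. Named genes are the 10 members, the genes with the lowest and highest mean change of each pathway list among genes active in both lines, and the 3 nearest genes by distance for CCND1, CDK6, RB1 and CDKN1B; CDKN2B, MCM3, PTPRC, EEF1A1 and the overlapping genes were named after their values were seen. The members, lists and rules were chosen with earlier results of these data known, including rows of CCND1 and CDK4 in the authors' supplementary values. Alternatives were a pseudocount of 0.1, an active level of 5 FPKM or no filter, protein-coding genes alone and a 1.5-fold limit. Further alternatives were scaling by the sum, by the 75th percentile of active genes or by the active ones of 84 ribosomal protein genes. The scalings of the 200 nM against 50 nM comparison were added after seeing the data. Some genes of these lists are not reported here. The steps were tested on simulated data. Python 3.11.15, numpy 2.4.6, pandas 2.3.3 and matplotlib 3.10.9 were used.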

Additional observations from a re-analysis of the deposited data

Results flagged for a closer look

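CDKN2A drew attention because every THZ1 library of one line lay on the other side of DMSO from every THZ1 library of the other. On the log2(FPKM + 1) scale the changes in A673 were -0.28 for the lower dose and -0.26 for the higher. Those in SKNMC were 0.18 and 0.41. Each value comes from 1 library, and whether the lines differ was not tested. All A673 levels of CDKN2A were below 1 FPKM, and the SKNMC values became -0.19 and -0.16 under ribosomal protein scaling.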

How the results depend on the processing

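Doses were paired within a cell line in the fit with the line as a block, given in the report, and there is no replicate number to pair by, since each condition is 1 library. Leaving out a replicate would leave a condition without a library. FPKM gives no read depth, so the precision of low levels such as CDK6 in SKNMC or CDKN2A in A673 is unknown. The pseudocount of 0.1, protein-coding genes alone and rescaling to the DMSO sum left the counts of members that fell against DMSO unchanged and moved their medians by less than 0.1. Under 75th percentile scaling the medians became 0.037 and -0.12 in A673 and -0.091 and -0.099 in SKNMC at 50 and 200 nM, and the counts at 200 nM became 1 in A673 and 0 in SKNMC, beside 17.3% and 13.4% of all active genes. Under ribosomal protein scaling the medians became -0.44 and -0.86 in A673 and -0.67 and -1.18 in SKNMC, and the counts became 3 at 200 nM in A673 and 1 at 50 nM and 6 at 200 nM in SKNMC, beside 35.2%, 26.5% and 49.7% of all active genes. Without a filter on low values the A673 median at 200 nM was -0.18. With active genes above 5 FPKM the SKNMC median at 200 nM was -0.51 and its count 0. With a 1.5-fold limit the lower dose gave 2 of 7 genes in A673 and 1 of 10 in SKNMC. The higher dose gave 3 of 7 and 5 of 10, respectively. The share of all active genes past this limit was not computed, so these counts have no background to be read against.

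Single genes that changed sign were, under 75th percentile scaling, CCND3 (0.037), CDK4 (0.037), CDK6 (0.21) and RB1 (0.051) at 50 nM and CCND3 (0.31) at 200 nM in A673, and CCND2 (0.39) and CDK4 (0.051) at 200 nM in SKNMC. Rescaling to the DMSO sum put CDK6 at 50 nM in A673 at 0.012. Under ribosomal protein scaling they were CDK4 (-0.21) and RB1 (-0.16) at 200 nM in A673, CCND2 (-0.035) and CDKN2A (-0.19) at 50 nM and RB1 (-0.53) and CDKN2A (-0.16) at 200 nM in SKNMC. Between the doses the same scaling gave -0.011 for CCND1 in A673 and -0.16 for CCND1, -0.15 for CDK4 and -0.17 for CDKN1C in SKNMC. The count of 4 genes at least 2-fold apart between the lines was 5 with a pseudocount of 0.1, 6 under ribosomal protein scaling and 4 under the other scalings. By construction these scalings multiply all FPKM of a library by the same factor, but with 1 FPKM added weakly expressed genes move less. At 200 nM in SKNMC, 75th percentile scaling took CCND1 from -0.87 to -0.30 and CDK6 from -1.07 to -0.77.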
